A study of Mus musculus with 3 samples.

Results

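The genes described here encode the machinery of homologous recombination, the Fanconi anaemia pathway and the damage checkpoint, followed across RNA sequencing libraries of a mouse skin tumour promotion model. The members are 38 listed gene symbols, of which 37 were found by exact match among the 24421 genes of the count table. The symbol Claspn was not among them; claspin stands in the table as Clspn, which is described below but is in no count. All 37 were among the 13100 genes with at least 1 CPM (the read count scaled to a common library size) in at least 1 library, and each held over 1 CPM in every library, from 2.26 to 277 CPM. The libraries come from JB6 P+ cells, an established mouse line in which tumour promoters induce anchorage-independent growth. One library was a control, one came from cells given 10 ng/mL of the phorbol ester TPA, and one from cells given 10 ng/mL TPA with 50 nM CDDO, a synthetic oleanane triterpenoid (CDDO+TPA). Treatments were repeated every other day over 5 days in medium with 1% serum. The sources used here do not say whether the control had the same medium, time or vehicle, so TPA cannot be told apart from these in any difference from control. Each group had 1 library, so the spread between cultures was not measured and no difference below was tested against it. The column taken as CDDO+TPA is named for CDDO alone, and it was matched to the only sample whose labels name CDDO.

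Homologous recombination repairs broken chromosomes and stalled replication forks by copying the sister chromatid. Broken ends are trimmed to single strands, the BRCA proteins prepare these strands to invade the intact copy, and helicases resolve the joined molecules. The Fanconi anaemia proteins recognise crosslinks between the DNA strands, ubiquitinate the FANCD2-FANCI pair and hand the lesion to recombination, while the ATM and ATR kinases signal the damage and hold the cell cycle. Many of these genes are known to be transcribed most strongly in S and G2 phase, under E2F and related factors, and their RNA is more abundant in dividing cultures. In a bulk library, more cells expressing a gene and more RNA per cell cannot be told apart.

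Reads assigned to genes numbered 8190078 in control, 7813035 in TPA and 7872089 in CDDO+TPA. The cells are labelled as epithelial, yet none of 6 keratinocyte markers reached 1 CPM in any library, Krt5, Krt15 and Epcam had no read at all, and the summed level of the 6 was 0.749, 0.126 and 0.887 CPM. Of 6 mesenchymal markers 5 were measured, summing to 2908, 1834 and 2247 CPM. No leukocyte marker of 5 was measured, with summed levels of 0.250, 0.377 and 0.127 CPM and Ptprc and Cd3e at 0, and of 4 endothelial markers only Pecam1 was, with 2, 13 and 5 reads. Values given in threes below are those of control, TPA and CDDO+TPA.

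A majority of the members were higher past a size rule in the CDDO+TPA library than in the TPA library, among them all 5 genes of the BRCA complexes and both genes of the ID complex. The Fanconi core complex had 2 of 7 past the rule, and Nbn, Rbbp8, Atr, Xrcc3 and Fancf had log2 fold changes below 0. The size rule asked for a log2 fold change of 1 or more in either direction, together with an exact 95% counting interval of the fold that excluded 1. In CDDO+TPA against TPA, 21 of 37 members were higher past the rule (56.8%), against 7.87% of all genes, and 0 were lower, against 7.78%. The median log2 fold change of the members was 1.45, with a range of -0.32 to 2.83, while the median of all genes was 0.01. In CDDO+TPA against control, 17 were higher (45.9%), against 8.02% of all genes, and 0 lower, against 3.37%, with a median log2 fold change of 0.91. In TPA against control, 0 were higher, against 9.57% of all genes, and 7 were lower (18.9%), against 5.91%, with a median of -0.26. The 3 comparisons share libraries and are not independent of each other.

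Across the 3 libraries the commonest order had TPA lowest and CDDO+TPA highest. It was found for 22 of 37 members, against 16.7% of all genes measured (21 members and 16.5% with scaling by total counts). Being higher past the rule in CDDO+TPA against both other libraries was found for 16 members, against 3.36% of all genes. The summed level of the 37 members was 1256, 1212 and 2118 CPM, so that the CDDO+TPA library held 1.75 times the TPA sum and 1.69 times the control sum. Between control and TPA, 11 members had a positive log2 fold change, among them Topbp1 and Atr, and 26 a negative one, against 13 and 23 with scaling by total counts and 14 and 23 with upper quartile factors, where Brca1 and Rmi2 turned from slightly below to slightly above 0.

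**Figure D1:**
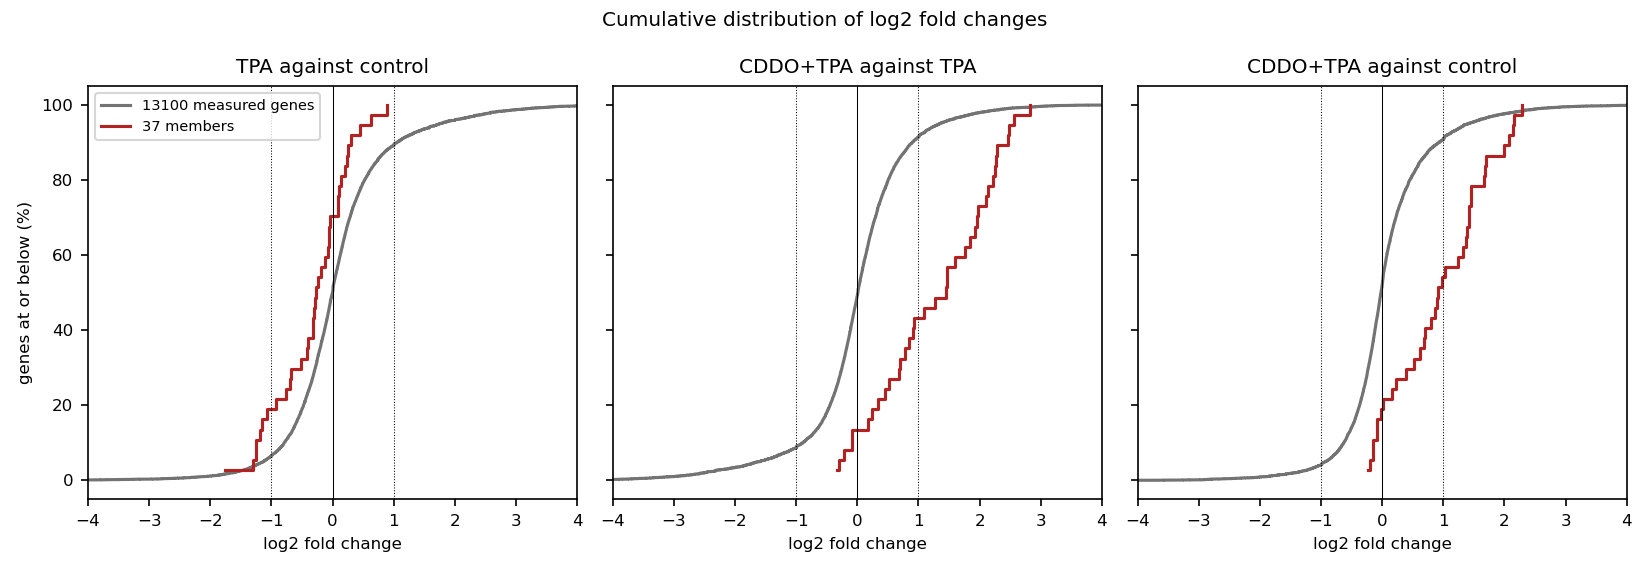
Cumulative share of genes (y axis, percent) by log2 fold change (x axis, shown from -4 to 4) for all 13100 genes measured and for the 37 members, in 3 panels, one per comparison. The members' curve lies to the right of all genes over most of its range in both comparisons of CDDO+TPA, with medians of 1.45 against TPA and 0.91 against control, and slightly to the left in TPA against control, with a median of -0.26.

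The sequences before the start sites of some members higher past the rule in CDDO+TPA against TPA are shown. What regulates these genes was not tested. For 29 of the 37 members a RefSeq promoter on GRCm38.p6 was at hand. From each role the member highest past the rule in CDDO+TPA against TPA was taken, where the 250 bases before its RefSeq start lay outside the deposited gene and that start was found in a GENCODE transcript, which gave 6 promoters. They are printed 5′ to 3′ on the strand of the gene, with CCAAT boxes (CCAAT, or ATTGG on the other strand) and E2F matches in capitals. The positions are Brip1 chr11:86201194-86201443 on the minus strand, Rad51ap1 chr6:126939588-126939837 on the minus strand, Chek2 chr5:110839733-110839982 on the plus strand, Fanca chr8:123318577-123318826 on the minus strand, Fanci chr7:79392088-79392337 on the plus strand and Rad18 chr6:112696671-112696920 on the minus strand.
Brip1: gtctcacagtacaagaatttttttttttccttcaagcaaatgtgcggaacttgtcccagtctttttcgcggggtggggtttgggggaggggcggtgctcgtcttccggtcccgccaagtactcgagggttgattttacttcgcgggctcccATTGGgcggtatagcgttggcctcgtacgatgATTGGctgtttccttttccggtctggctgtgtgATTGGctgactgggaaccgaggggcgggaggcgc
Rad51ap1: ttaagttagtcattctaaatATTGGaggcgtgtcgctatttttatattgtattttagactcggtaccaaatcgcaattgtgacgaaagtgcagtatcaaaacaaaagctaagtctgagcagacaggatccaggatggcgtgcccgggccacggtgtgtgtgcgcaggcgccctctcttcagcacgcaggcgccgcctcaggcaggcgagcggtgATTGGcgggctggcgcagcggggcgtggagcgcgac
Chek2: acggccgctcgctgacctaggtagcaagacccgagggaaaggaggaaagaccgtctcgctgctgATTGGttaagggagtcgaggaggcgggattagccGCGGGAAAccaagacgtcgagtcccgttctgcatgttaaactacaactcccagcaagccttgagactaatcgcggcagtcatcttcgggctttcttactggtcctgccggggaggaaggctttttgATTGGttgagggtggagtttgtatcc
Fanca: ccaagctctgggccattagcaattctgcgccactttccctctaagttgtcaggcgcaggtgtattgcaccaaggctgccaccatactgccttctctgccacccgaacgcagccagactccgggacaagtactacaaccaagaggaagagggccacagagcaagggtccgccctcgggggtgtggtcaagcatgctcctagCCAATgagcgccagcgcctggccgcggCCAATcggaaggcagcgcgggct
Fanci: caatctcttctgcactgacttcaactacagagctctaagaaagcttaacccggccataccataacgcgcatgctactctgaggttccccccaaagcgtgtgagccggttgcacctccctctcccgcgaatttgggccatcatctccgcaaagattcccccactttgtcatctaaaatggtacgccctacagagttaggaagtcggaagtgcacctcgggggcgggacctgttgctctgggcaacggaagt
Rad18: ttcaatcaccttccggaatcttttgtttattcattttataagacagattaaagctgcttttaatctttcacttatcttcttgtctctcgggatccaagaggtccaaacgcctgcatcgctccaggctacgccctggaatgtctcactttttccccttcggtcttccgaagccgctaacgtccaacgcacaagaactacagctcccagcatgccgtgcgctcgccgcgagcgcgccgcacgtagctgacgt
Brip1 holds 3 CCAAT boxes, 99, 67 and 34 bases before its start. Rad51ap1, Fanca and Chek2 hold 2 each, and Chek2 also holds an E2F match 152 bases before its start. Fanci and Rad18, both higher past the rule, hold none of the motifs searched.

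Several kinds of motif were searched on both strands of the 29 promoters, from 250 bases before to 50 after the start. E2F was spelled TTTCCCGC, TTTCGCGC, TTTGCCGC or TTTGGCGC, the cell cycle homology region (CHR) TTTGAA or TTCGAA, the CCAAT box CCAAT, and the antioxidant response element bound by NRF2 TGACNNNGC. No spelling contains another. An E2F match was found in 7 of 29 members (24.1%), against 2.32% of 27025 promoters. The members' promoters are richer in G and C, with a median of 58.0% against 52.7%, and among all promoters at or above 58.0% the E2F share was 4.32%, the CCAAT box share 33.3%, the CHR share 7.95% and the antioxidant response element share 15.6%. Matches were no commoner among members past the rule, with 3 of 16 (18.8%) against 4 of 13 not past it (30.8%). The CCAAT box was found in 18 members (62.1%), against 37.9% of all promoters, with 9 of the 16 and 9 of the 13. CHR was found in 3 members (10.3%), against 19.4% of all promoters and 7.95% of those at or above 58.0%. The antioxidant response element was found in 6 (20.7%), against 12.5% and 15.6%. The cut of 58.0% is the members' own median, so the promoters above it are not matched to the members in G and C. A match is a run of letters, and binding was not measured.

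The 5 E2F matches before a start site lie in the windows below, each 30 bases on the gene's strand with the match in capitals. They were chosen after the matches were seen. The RefSeq start of Brca2 was not found in a GENCODE transcript, nor were those of Fancl, Msh6 and Xrcc3 among the promoters searched. The windows are Bard1 chr1:71103163-71103192 on the minus strand, Brca2 chr5:150522442-150522471 on the plus strand, Chek2 chr5:110839820-110839849 on the plus strand, Fancg chr4:43010335-43010364 on the minus strand and Topbp1 chr9:103305187-103305216 on the plus strand.
Bard1: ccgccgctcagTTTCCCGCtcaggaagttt
Brca2: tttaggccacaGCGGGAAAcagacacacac
Chek2: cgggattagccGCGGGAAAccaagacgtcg
Fancg: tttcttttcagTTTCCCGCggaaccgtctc
Topbp1: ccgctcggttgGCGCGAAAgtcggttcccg
Bard1, Brca2 and Chek2 were higher past the rule in CDDO+TPA against TPA, whereas Fancg and Topbp1 were not. The matches of Msh6 and Rad51c, neither past the rule in that comparison, lie after the start.

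The genes of the BRCA complexes, which act between end resection and strand invasion, were all 5 higher past the rule in the CDDO+TPA library against both others, with a median log2 fold change of 2.22 against TPA. Their summed level was 87.9, 62.5 and 297 CPM. Brca1, a ubiquitin ligase that steers breaks into recombination (chromosome 11, 101488764 to 101551955, minus strand in mm10), had 208, 199 and 870 reads, or 26.0, 25.0 and 110 CPM. Control and TPA were level, and CDDO+TPA was 4.41-fold above TPA (95% counting interval 3.78 to 5.17). Its partner Bard1 (chromosome 1, 71027535 to 71102972, minus strand) had 6.61, 5.40 and 27.2 CPM and was 5.05-fold higher (3.62 to 7.18). The order of the libraries was the same for Bard1 as for Brca1.

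Brca2, which acts on resected single-stranded DNA (chromosome 5, 150522621 to 150570146, plus strand), had 250, 145 and 675 reads, or 31.2, 18.2 and 85.5 CPM. It was 4.70-fold higher in CDDO+TPA than in TPA (3.92 to 5.66) and 2.74-fold above control (2.37 to 3.18). With TPA alone its level was 1.71-fold below control (1.39 to 2.12), short of the size rule. Palb2, the bridge between BRCA1 and BRCA2, had 5.24, 5.65 and 13.9 CPM and was 2.47-fold higher in CDDO+TPA than in TPA (1.73 to 3.57), the smallest ratio of the 5.

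Brip1, a helicase that binds BRCA1 and is also the Fanconi gene FANCJ (chromosome 11, 86058136 to 86201193, minus strand), had the largest difference of all members in CDDO+TPA against TPA. It had 151, 66 and 477 reads, or 18.8, 8.29 and 60.4 CPM. The TPA level was 2.27-fold below control (1.69 to 3.09), and the CDDO+TPA level was 7.29-fold above TPA (5.63 to 9.59) and 3.21-fold above control (2.67 to 3.88). Brip1 was thus past the rule in all 3 comparisons, downward with TPA and upward with CDDO+TPA.

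**Figure D2:**
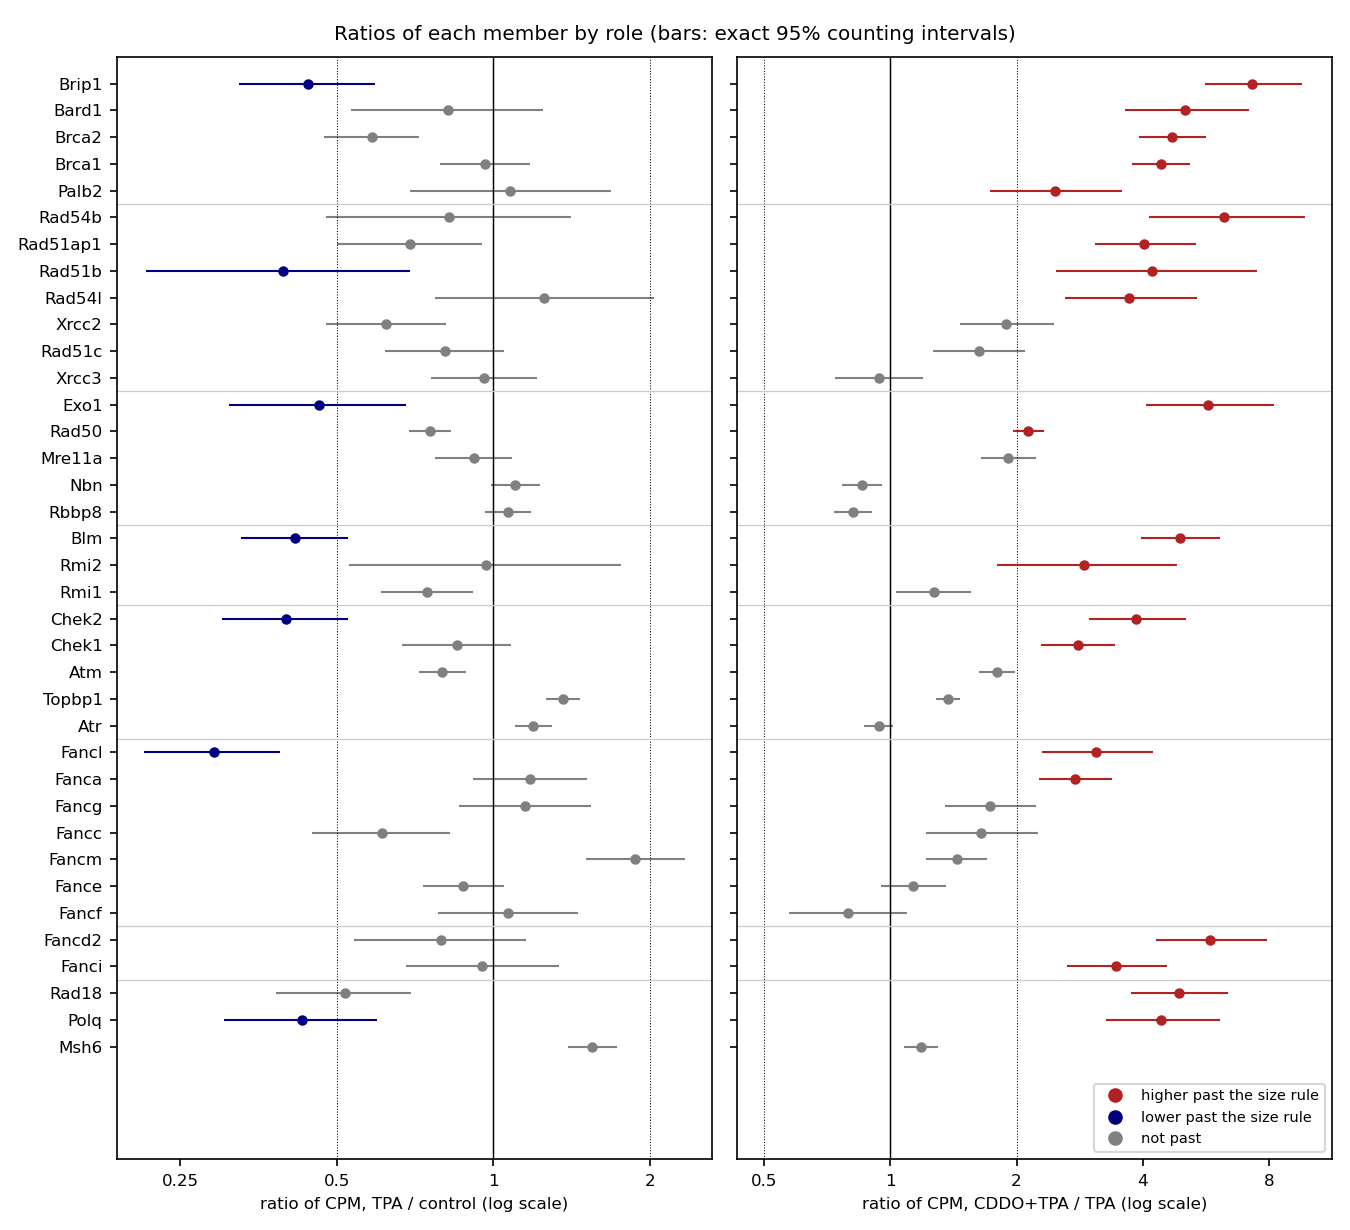
Ratio of CPM (x axis, log scale) for each of the 37 members, with TPA over control in the left panel, CDDO+TPA over TPA in the right panel and 95% counting intervals as bars. Red points are higher past the size rule, navy points lower and grey points not past it, dotted lines mark 0.5 and 2, and 21 members are red in CDDO+TPA against TPA while 7 are navy in TPA against control.

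The recombination accessory genes and motors were divided, with 4 of 7 higher past the rule in CDDO+TPA against TPA, a median of 1.84 and summed levels of 80.6, 62.5 and 145 CPM. Both motors were among the 4. Rad54b, a translocase that drives strand exchange and branch migration (chromosome 4, 11558920 to 11615808, plus strand), had 33, 27 and 167 reads, or 4.12, 3.39 and 21.2 CPM. It was 6.24-fold higher in CDDO+TPA than in TPA (4.14 to 9.75) and 5.14-fold above control (3.52 to 7.71), the largest difference from control among the members. Rad54b shares 4126 exonic bases on the same strand with Fsbp, which held 6, 1 and 9 reads, and reads in the shared bases may not be assigned to either gene. The related Rad54l had 4.12, 5.15 and 19.1 CPM and was 3.72-fold higher (2.62 to 5.39). Rad54l shares 155 exonic bases with Lrrc41 on the other strand, which held 880, 1096 and 748 reads.

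Rad51ap1, which promotes strand pairing, had 12.4, 8.54 and 34.5 CPM and was 4.04-fold higher in CDDO+TPA than in TPA (3.09 to 5.35). Rad51b had few reads, 46, 18 and 75, at 5.74, 2.26 and 9.50 CPM. It was 2.54-fold lower in TPA than in control (1.45 to 4.66) and 4.21-fold higher in CDDO+TPA than in TPA (2.49 to 7.48), so that CDDO+TPA was not past the rule against control. Xrcc2, Xrcc3 and Rad51c, which like Rad51b assist strand invasion, were not past the rule in any comparison. In CDDO+TPA against TPA the ratio was 1.89 (1.46 to 2.45) for Xrcc2, 1.62 (1.27 to 2.09) for Rad51c and 0.940 (0.738 to 1.20) for Xrcc3. Xrcc3 was level across the libraries at 19.0, 18.2 and 17.1 CPM. Its counting interval lay below the ratio of each of the 4, but it leaves out the spread between cultures.

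Of the end resection genes, 2 of 5 were higher past the rule in CDDO+TPA against TPA, with a median of 0.93. Exo1, the exonuclease of long-range resection, had 87, 40 and 227 reads, or 10.9, 5.02 and 28.8 CPM. It was 2.16-fold lower in TPA than in control (1.47 to 3.23), 5.73-fold higher in CDDO+TPA than in TPA (4.08 to 8.23) and 2.65-fold above control (2.06 to 3.43). The MRE11-RAD50-NBN complex, which senses and clips broken ends, had 1 of its 3 genes past the rule. Rad50, its ATPase, had 132, 99.7 and 213 CPM and was 2.13-fold higher in CDDO+TPA than in TPA (1.96 to 2.33), just past the rule. Mre11a, its nuclease, had 36.6, 33.5 and 64.0 CPM with a ratio of 1.91 (1.64 to 2.22), just short of it.

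Nbn, the subunit that recruits ATM, had 80.5, 88.8 and 76.0 CPM and a ratio of 0.857 (0.767 to 0.956). Per kilobase of exon, Rad50 stood at 25.6, 19.3 and 41.3 CPM and Mre11a at 12.2, 11.2 and 21.3. Nbn stood at 32.3, 35.6 and 30.5, so that it had the highest level of the 3 in control and TPA, and Rad50 in CDDO+TPA. Rbbp8, which encodes CtIP, the cofactor that starts resection, had 93.2, 99.3 and 81.0 CPM and a ratio of 0.815 (0.734 to 0.906). Neither Nbn nor Rbbp8 was past the rule in any comparison.

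Of the complex that dissolves joined chromatids, Blm and Rmi2 were higher past the rule in the CDDO+TPA library against both others, and Rmi1 in neither. Blm, the helicase mutated in Bloom syndrome (chromosome 7, 80454993 to 80535119, minus strand), had 249, 103 and 501 reads, or 31.1, 12.9 and 63.5 CPM. It was 2.40-fold lower in TPA than in control (1.90 to 3.05), 4.91-fold higher in CDDO+TPA than in TPA (3.96 to 6.13) and 2.04-fold above control (1.75 to 2.39). Rmi2 had the fewest reads of the members in control and CDDO+TPA, 25, 24 and 69, and was 2.90-fold higher in CDDO+TPA than in TPA (1.80 to 4.83). Rmi1, its partner in binding topoisomerase III alpha, had 29.0, 21.6 and 27.4 CPM and a ratio of 1.27 (1.03 to 1.56).

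Among checkpoint genes the effector kinases were past the rule and the apical kinases were not. Chek1, the main target of ATR (chromosome 9, 36708482 to 36726658, minus strand), had 155, 131 and 363 reads, or 19.3, 16.4 and 46.0 CPM. It was 2.80-fold higher in CDDO+TPA than in TPA (2.28 to 3.44) and 2.38-fold above control (1.97 to 2.89). Chek2, the main target of ATM (chromosome 5, 110840017 to 110874133, plus strand), had 184, 73 and 279 reads, or 23.0, 9.16 and 35.4 CPM. Its TPA level was 2.51-fold below control (1.90 to 3.33) and its CDDO+TPA level 3.86-fold above TPA (2.97 to 5.06), which left it short of the rule against control.

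Atm had 101, 80.5 and 144 CPM, with a CDDO+TPA to TPA ratio of 1.80 (1.63 to 1.98). Atr had 136, 162 and 152 CPM with a ratio of 0.938 (0.867 to 1.02), an interval that leaves out the spread between cultures. Topbp1, which activates ATR, had 148, 201 and 277 CPM and a ratio of 1.37 (1.29 to 1.47). Atm, Atr and Topbp1 each held at least 641 reads in every library. Clspn, the adaptor through which ATR reaches CHK1 and outside the member counts, had 21.7, 15.8 and 76.2 CPM and was 4.81-fold higher in CDDO+TPA than in TPA (3.97 to 5.88) and 3.51-fold above control (2.96 to 4.18).

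The Fanconi core complex, the ubiquitin ligase of the pathway, had 2 of 7 genes higher past the rule in CDDO+TPA against TPA and a median of 0.71. Fanca, a scaffold subunit (chromosome 8, 123268244 to 123318576, minus strand), had 118, 138 and 377 reads, or 14.7, 17.3 and 47.8 CPM, and was 2.76-fold higher (2.26 to 3.38). It shares 777 exonic bases with Zfp276 on the other strand, which held 398, 477 and 307 reads, and the counting gave no strand option. The effect of the shared bases on the Fanca count was not tested. Fancl, the catalytic ligase subunit (chromosome 11, 26387084 to 26471883, plus strand), had 205, 59 and 181 reads, or 25.6, 7.41 and 22.9 CPM. Its TPA level was 3.45-fold below control (2.57 to 4.70), the largest such difference among the members. Its CDDO+TPA level was 3.10-fold above TPA (2.30 to 4.23) and 0.896 of control (0.730 to 1.10). Fancl shares 385 exonic bases with Vrk2 on the other strand, which held 59, 73 and 85 reads.

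Fancm, a translocase that brings the core complex to stalled forks, had 16.2, 30.4 and 43.7 CPM. It was past the rule only in CDDO+TPA against control, at 2.69-fold (2.20 to 3.32), and had the highest TPA to control ratio of the members, 1.87. Fancg had 11.4, 13.1 and 22.6 CPM and a CDDO+TPA to TPA ratio of 1.73 (1.35 to 2.22), and Fancc had 14.6, 8.91 and 14.7 CPM and a ratio of 1.65 (1.22 to 2.25). Fance, the link to FANCD2, was close to level at 33.7, 29.5 and 33.5 CPM with a ratio of 1.13 (0.947 to 1.36). Fancf, an adaptor within the core, had 10.5, 11.2 and 8.87 CPM and a ratio of 0.794 (0.572 to 1.10), the lowest ratio of all members.

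Both subunits of the ID complex, the substrate of the core ligase, were higher past the rule in CDDO+TPA against both other libraries. Fancd2 (chromosome 6, 113531682 to 113596285, plus strand) had 66, 52 and 298 reads, or 8.24, 6.53 and 37.8 CPM. It was 5.78-fold higher than in TPA (4.30 to 7.92) and 4.58-fold higher than in control (3.50 to 6.08). Fanci (chromosome 7, 79392338 to 79450264, plus strand) had 75, 71 and 243 reads, or 9.36, 8.91 and 30.8 CPM, and was 3.45-fold higher than in TPA (2.64 to 4.57). Control and TPA differed little for either gene, with log2 fold changes of -0.32 and -0.07. Fanci shares 398 exonic bases with Polg on the other strand, which held 838, 807 and 841 reads.

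Of the other repair genes, Rad18, a ubiquitin ligase that modifies PCNA at stalled forks (chromosome 6, 112619851 to 112696670, minus strand), had 136, 70 and 338 reads, or 17.0, 8.79 and 42.8 CPM. It was 4.87-fold higher in CDDO+TPA than in TPA (3.76 to 6.40) and 2.52-fold above control (2.06 to 3.10). Polq, the polymerase of end joining at short homologies, had 15.2, 6.53 and 28.9 CPM. It was 2.33-fold lower in TPA than in control (1.67 to 3.29) and 4.43-fold higher in CDDO+TPA than in TPA (3.26 to 6.10). Msh6, a mismatch recognition subunit, had 67.6, 105 and 124 CPM and a ratio of 1.18 (1.08 to 1.30), with the larger step between control and TPA, 1.55-fold.

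**Figure D3:**
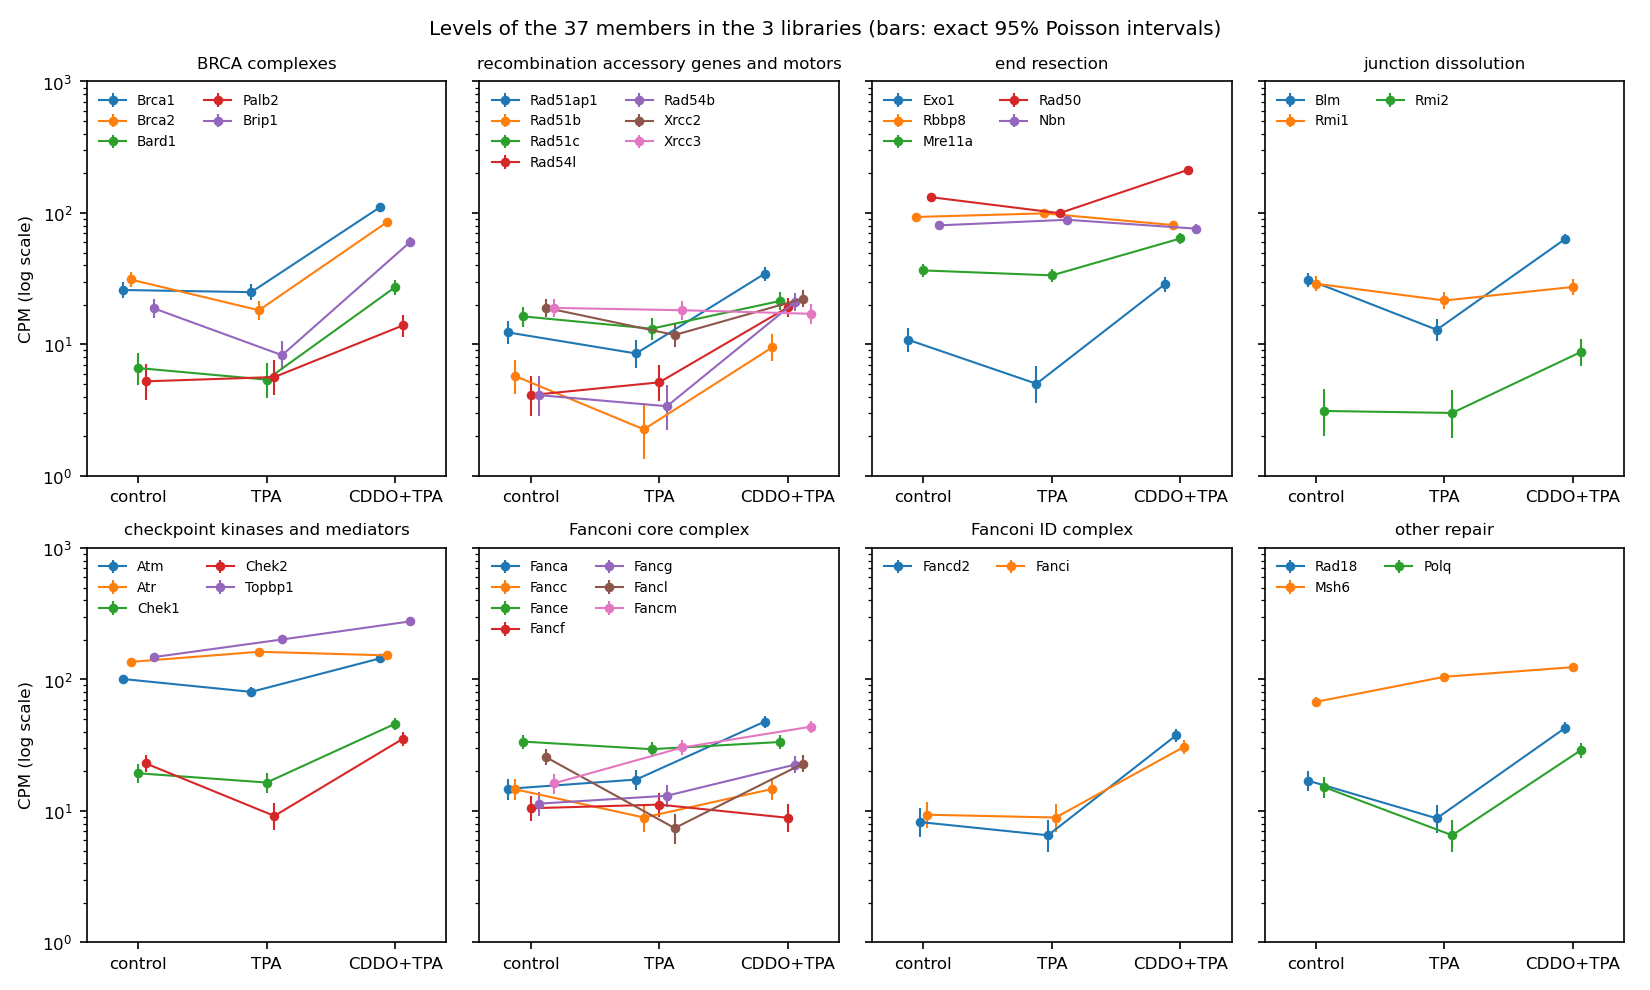
CPM (y axis, log scale) of each of the 37 members by library, in 8 panels by role, with 95% Poisson intervals of the count as bars and 1 library per group. The BRCA and ID complex panels turn upward at CDDO+TPA for every gene, while Xrcc3, Nbn, Rbbp8, Atr, Fance and Fancf run close to level.

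The 7 members lower past the rule in TPA against control were Brip1, Rad51b, Exo1, Blm, Chek2, Fancl and Polq, 1 from each role but the ID complex. All 7 were higher past the rule in CDDO+TPA against TPA, a comparison that uses the same TPA library. Only Brip1, Exo1 and Blm of them were also past the rule above control. With a spread between cultures of 0.4 (coefficient of variation, assumed and not measured) added to the counting interval, 1 of the 7, Fancl, was still past the rule in TPA against control (2.70% of the members), near the 1.88% of all genes. Under the same assumption 16 of 37 members were past it in CDDO+TPA against TPA, against 3.03% of all genes, and 8 in CDDO+TPA against control, against 3.12%.

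The members were divided by their control level. Of the 26 members under 30 CPM in control, 18 were higher past the rule in CDDO+TPA against TPA, with a median log2 fold change of 1.68, where 14.5% of all genes under that level were higher. Of the 11 at or above 30 CPM, 3 were (Brca2, Blm and Rad50), with a median of 0.46, where 3.24% of all genes at that level were higher. Levels did not order the members strictly, since Fancf and Xrcc3 lay below 30 CPM in control with log2 fold changes of -0.32 and -0.09. Brca2 and Blm, with 2.22 and 2.27, lay only just above that cut, at 31.2 and 31.1 CPM. This division, by CPM that is not scaled to gene length, was chosen after the values were seen. Across the 37 members, Spearman's rho between the control level per kilobase and the log2 fold change of CDDO+TPA against TPA was -0.62. This is a description over genes that share the same libraries, and no rho over all genes was computed. No member held more than 0.427 reads per exonic base, in any library.

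Of 88 measured repair genes outside the members, drawn from 5 lists, 16 were higher past the rule in CDDO+TPA against TPA (18.2%) and 1 lower, with a median of 0.28. The difference between the members and these lists was not tested, and the lists were chosen with earlier results of these data known. Of the other homologous recombination genes, 8 of 31 were higher and 0 lower, with a median of 0.41. Parpbp, an inhibitor of recombination, was 8.86-fold higher (5.94 to 13.7), and Gen1, a resolvase of joined molecules, 6.20-fold (4.17 to 9.52). Parpbp shares 434 exonic bases with Pmch on the other strand, which held 2, 2 and 10 reads. The smallest ratios past the rule were those of Rpa2, a subunit of the single-strand binding protein, at 2.15-fold (1.73 to 2.69), Mms22l at 2.50-fold (2.09 to 3.00) and Fignl1 at 3.30-fold (2.71 to 4.04). Mcm8 and Eme1 were also higher past the rule.

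Of the other Fanconi and crosslink genes, 3 of 18 were higher, 0 lower, and the median was 0.38. Fancb, a core subunit, was 3.18-fold higher (2.36 to 4.36), the nuclease gene Fan1 3.03-fold (1.89 to 5.03) and Apitd1, a histone-fold partner of FANCM, 2.29-fold (1.60 to 3.33). Of the other checkpoint genes, 4 of 24 were higher, 0 lower, and the median was 0.12. Cdc25c, the phosphatase held in check by the checkpoint kinases, was 4.56-fold higher (3.18 to 6.69), the fork protection gene Timeless 3.07-fold (2.53 to 3.74), Bre, of the BRCA1-A complex, 2.32-fold (1.94 to 2.77) and Mcph1 2.04-fold (1.80 to 2.33).

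The 9 end joining genes, whose pathway repairs breaks without a template, had 0 past the rule in either direction in CDDO+TPA against TPA, with a median of 0.46. Of all genes 7.87% were higher and 7.78% lower there, so 0 of 9 does not set this list apart. Of 6 mismatch repair genes, 1 was higher past the rule and 1 lower, with a median of -0.37. In TPA against control, 5 of the 88 related genes were higher past the rule (5.68%), against 9.57% of all genes, and 6 lower (6.82%), against 5.91%. Of the 9 end joining genes, 2 were among those lower and 0 among those higher.

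**Figure D4:**
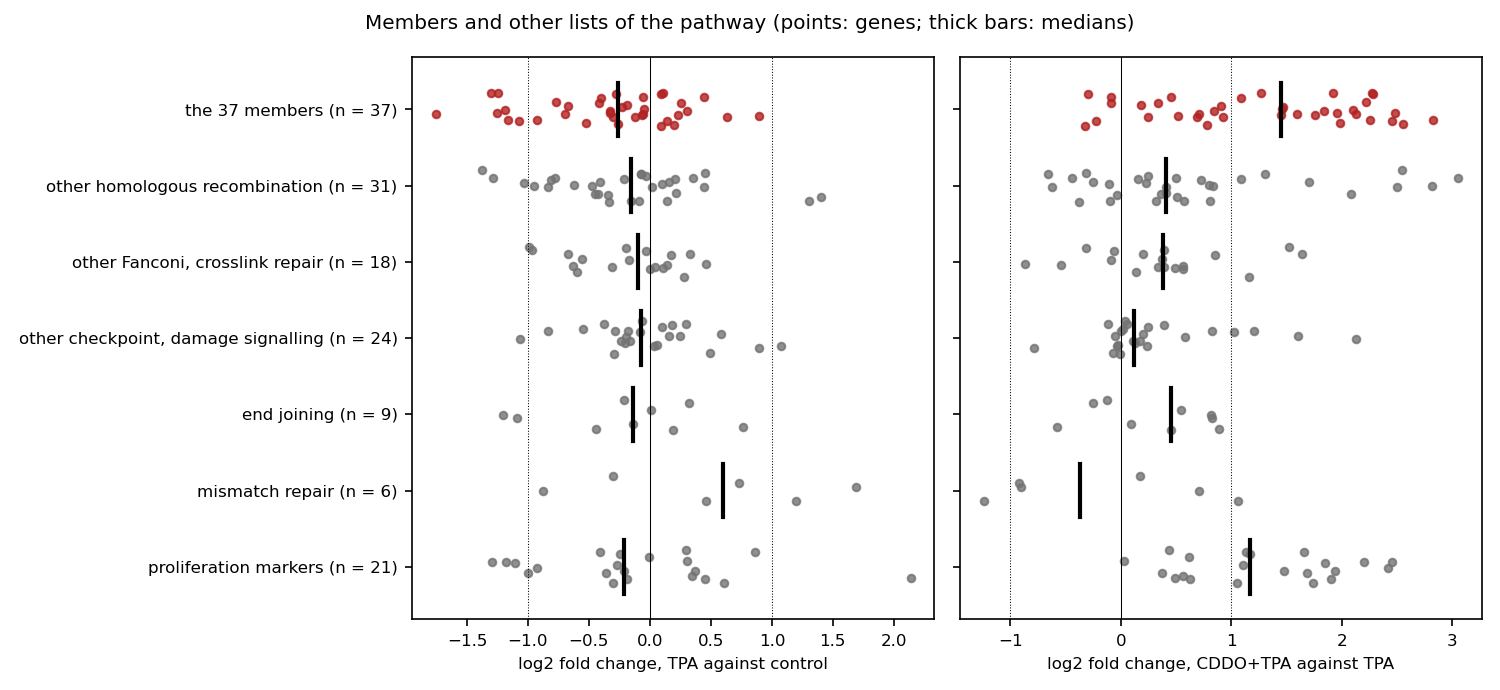
Log2 fold change (x axis) of each gene in the members, the 5 lists of related repair genes and the proliferation markers (rows), with 1 panel for TPA over control and 1 for CDDO+TPA over TPA, and black bars at each list's median. In CDDO+TPA against TPA the members' median of 1.45 and the proliferation markers' median of 1.17 lie above those of the repair lists, the highest of which is 0.46.

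Proliferation markers were higher in the same library as the members. Of 21 such markers, 14 were higher past the rule in CDDO+TPA against TPA and 0 lower, all 21 had positive log2 fold changes, and the median was 1.17. Their summed level was 1386, 1138 and 2689 CPM, a CDDO+TPA to TPA ratio of 2.36, against 1.75 for the members. In TPA against control 1 was higher and 3 lower, with a median of -0.21, and in CDDO+TPA against control 11 were higher. Mki67, the antigen of cycling cells, had 162, 85.2 and 459 CPM and was 5.38-fold higher in CDDO+TPA than in TPA (4.96 to 5.85). E2f1, a driver of S phase entry, was 1.48-fold higher (1.32 to 1.66) and the replicative helicase gene Mcm6 1.54-fold (1.42 to 1.67), both short of the rule. The part of proliferation in the members' differences was not tested.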

How the data were processed

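Total RNA of 3 libraries, 1 per group, was analysed. The authors deposited raw read counts per gene symbol in 1 table, made with featureCounts 1.5.3 on an mm10 annotation, per the file headers, without an option for strand. The submitters' processing notes also name HISAT2, Picard and DESeq, and the deposited column names carry a mark of duplicate removal, which can cap abundant genes. The header lists 7 alignment files, of which the 3 columns present were used.

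CPM was computed from the counts with TMM factors of the whole table in edgeR 4.0.16 (R 4.3.3). Log2 fold changes used a prior count of 2. Folds are ratios of CPM with exact conditional binomial (Clopper-Pearson) 95% intervals, and CPM intervals in the plot of levels are exact Poisson. Reads are not independent molecules, so intervals cover counting error only, and a floor of 3 reads lies at 0.374, 0.377 and 0.380 CPM. The filter was 1 CPM in at least 1 library, and no p-value was computed. Of the steps, only the size rule in CDDO+TPA against TPA was tested on simulated counts, which held no spread between cultures.

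The members, roles and lists were chosen with earlier results of these data known. All members are named, with the 3 highest and 3 lowest genes past the rule of each related list in CDDO+TPA against TPA, and Mki67, E2f1 and Mcm6. Some genes that this rule names are not reported here. Mcm8 and Eme1 were named after their values were seen. Alternatives were scaling, prior count, filter, threshold and an assumed spread of 0.2 or 0.4. Added after the data were seen were removal of a GC and length trend, Clspn counted as a member, and leaving out members with exons that overlap the other strand. Exon overlaps come from the deposited coordinates, and promoters from RefSeq on GRCm38.p6.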

Additional observations from a re-analysis of the deposited data

How the results depend on the processing

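No member past the rule changed sign under any alternative tried. In TPA against control, members near 0 did so: Brca1 and Rmi2 with total counts, these and Xrcc3 with upper quartile factors (log2 fold changes of at most 0.06 in size as reported), and Brca1, Fancf, Fanci and Mre11a with a GC and length trend removed. Fance crossed 0 in CDDO+TPA against control under these 3 settings, and the GC and length trend also moved Fancc and Rmi1 there and Xrcc3 in CDDO+TPA against TPA. In CDDO+TPA against TPA, the 21 members higher past the rule became between 16 (assumed coefficient of variation of 0.4, without Palb2, Rad50, Chek1, Fanca and Rmi2) and 27 (threshold of 1.5-fold), against 3.03% and 15.3% of all genes, and 0 were lower under each. In TPA against control, the threshold of 1.5-fold gave 2 higher and 11 lower members in place of 0 and 7, against 15.5% and 13.7% of all genes, and the assumed coefficient of variation of 0.4 gave 1 lower, against 1.88%. Removal of a GC and length trend, added after the data were seen, gave 1 higher (Fancm), against 9.19%, and took Brip1 and Exo1 out of those lower. In CDDO+TPA against control, the coefficient of variation of 0.4 gave 8 higher in place of 17, against 3.12%. That spread is assumed, since with 1 library per group none was measured. Total counts or upper quartile scaling brought Fancg past the rule in that comparison. No paired analysis was possible because each group has 1 library. Members with few reads, such as Rad51b with 18 in TPA, carry the widest intervals.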
